A study of Arabidopsis thaliana with 28 samples.

Results

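Closed flower buds of Arabidopsis thaliana that carry an ibm1 mutation were compared with buds that carry ibm1 together with jmj27, so the question is what changes in the bud transcriptome when JMJ27 is mutated in plants whose IBM1 is already mutated. The comparison set the 2 ibm1 jmj27 RNA libraries against the 2 ibm1 libraries over every gene of the deposited count tables, 27416 genes in all, of which 21548 passed a filter on low counts and were tested. Col (the Columbia control) and pds5 buds, with 2 libraries each, came from the same series and are used here for levels and for 1 comparison that shares no library with the main one. The labels name the genotypes without alleles. They give growth at 22 °C in light for 16 h or 8 h a day without saying which library had which, and they give no hour of harvest. Both arms of the comparison carry ibm1, so neither is a wild type, and jmj27 alone was not sequenced. Nothing in the labels says that the replicates came from separate plants, so p-values measure the spread between these libraries, which may be technical.

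IBM1 and JMJ27 are JmjC-domain enzymes of the KDM3 group, which take methyl groups off lysine 9 of histone H3 (H3K9), a mark that with DNA methylation keeps transposons and other chromatin silent. Loss of IBM1 is known to let H3K9 methylation and non-CG DNA methylation spread into active gene bodies, and the series title ties H3K9 demethylation to male meiosis. Closed buds hold anthers in which male meiocytes divide, the surrounding tapetum builds the pollen wall and coat, and microspores mature into pollen.

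JMJ27 (AT4G00990, chromosome 4) was read at 69.1 and 77.7 CPM (counts scaled to library size by the TMM method) in the ibm1 libraries and at 8.35 and 8.40 in the ibm1 jmj27 libraries. Col had 64.0 and 64.7. The groups did not overlap, and the log2 fold change was -3.13 ± 0.0865 (standard error, SE; edgeR quasi-likelihood test, Benjamini-Hochberg adjusted p = 1.01e-11). Since the allele is not given, where the mutation lies relative to the counted reads is not known. IBM1 (AT3G07610, chromosome 3) stood at 21.2 and 19.9 CPM in ibm1 and at 18.8 and 21.4 in ibm1 jmj27, against 52.5 and 55.5 in Col. Those mutant values overlapped, with a log2 difference of -0.04 ± 0.089 (adjusted p = 0.757), so both arms carried the lowered IBM1 transcript. Their relative JMJ29 (AT1G62310), fell from 61.4 and 60.6 CPM to 23.1 and 28.2, a log2 change of -1.26 ± 0.0963 (adjusted p = 2.57e-07). JMJ24 and JMJ26 did not pass the test, at -0.14 and -0.09.

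Libraries held 19490663 to 26038662 counts. Sampling noise did not account for the spread between replicates, which gave a chi-square per degree of freedom of 2.3 in ibm1 and of 14.4 in ibm1 jmj27, and no 2 libraries were copies. All 8 libraries shared the estimate of spread, so the SEs and p-values of the main comparison draw on Col and pds5 replicates too. They may understate the spread of the ibm1 jmj27 arm. On the first principal component, which took 50.5% of the variance, the ibm1 jmj27 libraries lay at 96.5 and 88.4 while the other 6 lay between -59.2 and -10.9. Floral identity genes of the labelled tissue were present in both arms, such as AP3 at 168 to 195 CPM and AG at 88.6 to 100 CPM.

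Nearly as many genes were higher as lower after the addition of jmj27. A gene was called at an adjusted p under 0.05 over all genes tested. By that rule 9798 genes (45.5%) were called, 4894 (22.7%) higher and 4904 (22.8%) lower in ibm1 jmj27. Counts of called list members below are to be read against these shares. The ibm1 and ibm1 jmj27 values did not overlap in 71.5% of all tested genes and in 9796 of those called. Groups that do not overlap therefore add little to a call. Most calls were small: the median log2 fold change of the higher genes was 0.56 and that of the lower genes -0.55, and the median over all tested genes was 0.00416. Large changes leaned downward. Requiring a log2 change of at least 1 left 1164 higher genes (5.4%) and 1437 lower genes (6.67%), and at a change of 4 or more there were 35 higher and 267 lower genes. Leaving out ibm1 replicate 2 reduced the calls to 6451, of which 2911 were higher and 3540 lower.

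Among called genes that have a symbol and average a log2 CPM of 1 or more, the 10 largest rises were led by the morning clock gene LHY. LHY read 18.6 and 20.5 CPM in ibm1 and 484 and 502 in ibm1 jmj27, a log2 fold change of 4.66 ± 0.0913 (adjusted p = 1.4e-12). QQS, an orphan gene known for its effect on starch and carbon allocation and for expression that varies with DNA methylation, went from 2.47 and 2.80 CPM to 26.1 and 21.8 (3.19 ± 0.193, adjusted p = 2.39e-08). Both stood clear of the ibm1 range in each ibm1 jmj27 library, and QQS was also low in Col (1.69 and 2.22) and pds5 (2.16 and 1.39). The others were MSRB9, a methionine sulfoxide reductase (log2 fold change 4.09), BSMT1, a methyltransferase of benzoate and salicylate (3.74), CEP1, a cysteine protease of tapetal cell death (3.47), CML41, a calmodulin-like protein (3.28), ELIP2, an early light-induced protein (3.12), NAI2, a component of endoplasmic reticulum bodies (3.10), TBL4 (3.09) and SAG13, a senescence marker (3.07). CEP1 differed between the ibm1 jmj27 libraries, at 4.39 and 9.19 CPM, both above its 0.485 and 0.737 in ibm1. BSMT1 likewise read 26.5 and 41.5 against 2.114 and 2.998. Both Col libraries were above ibm1 for MSRB9, BSMT1, CML41, NAI2 and TBL4, and below it for LHY, QQS, CEP1 and SAG13. For ELIP2, Col and ibm1 overlapped. NAI2 read 4.19 and 4.31 CPM in Col, 0.352 and 0.295 in ibm1 and 2.33 and 3.36 in ibm1 jmj27, which thus stayed below Col.

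The 10 largest falls were PGA4, RALFL8, HA6, VGDH2, MSP2, ADF7, WRKY31, PPC4, PAB3 and VSR2, most of them genes known from pollen. Each had at most 3 counts in the ibm1 jmj27 libraries together, so a ratio of counts is given in place of a fitted fold change. PGA4, a polygalacturonase, had 716 and 670 counts in ibm1 and 1 and 0 in ibm1 jmj27, a ratio of 1520 (exact 95% counting interval 272 to 60100). The proton pump gene HA6 had 537 and 444 counts against 1 and 0 (ratio 1080, interval 193 to 42500). PAB3, a poly(A)-binding protein of reproductive tissue, had 485 and 499 counts against 0 and 3 (ratio 360, interval 123 to 1750). RALFL8, MSP2, ADF7, WRKY31, PPC4 and VSR2 had no count in either ibm1 jmj27 library. Against a floor of 3 counts for both libraries together, RALFL8 was at least 88.8-fold lower, MSP2 at least 44.6-fold and VSR2 at least 26.3-fold. These floors and intervals cover counting error only. Across the whole table, 8 genes with a mean of 50 or more counts in ibm1 had 0 in both ibm1 jmj27 libraries. AT3G07850, with 1381 and 1281 counts in ibm1, was the largest of them. All of them but AT4G33467 had more counts in each Col library than in either ibm1 library, and AT4G33467 had 73 and 66 counts in ibm1 and 8 and 6 in Col. In the other direction 1 gene, AT4G08593, had no count in ibm1 or Col and 89 and 32 in ibm1 jmj27.

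**Figure D1:**
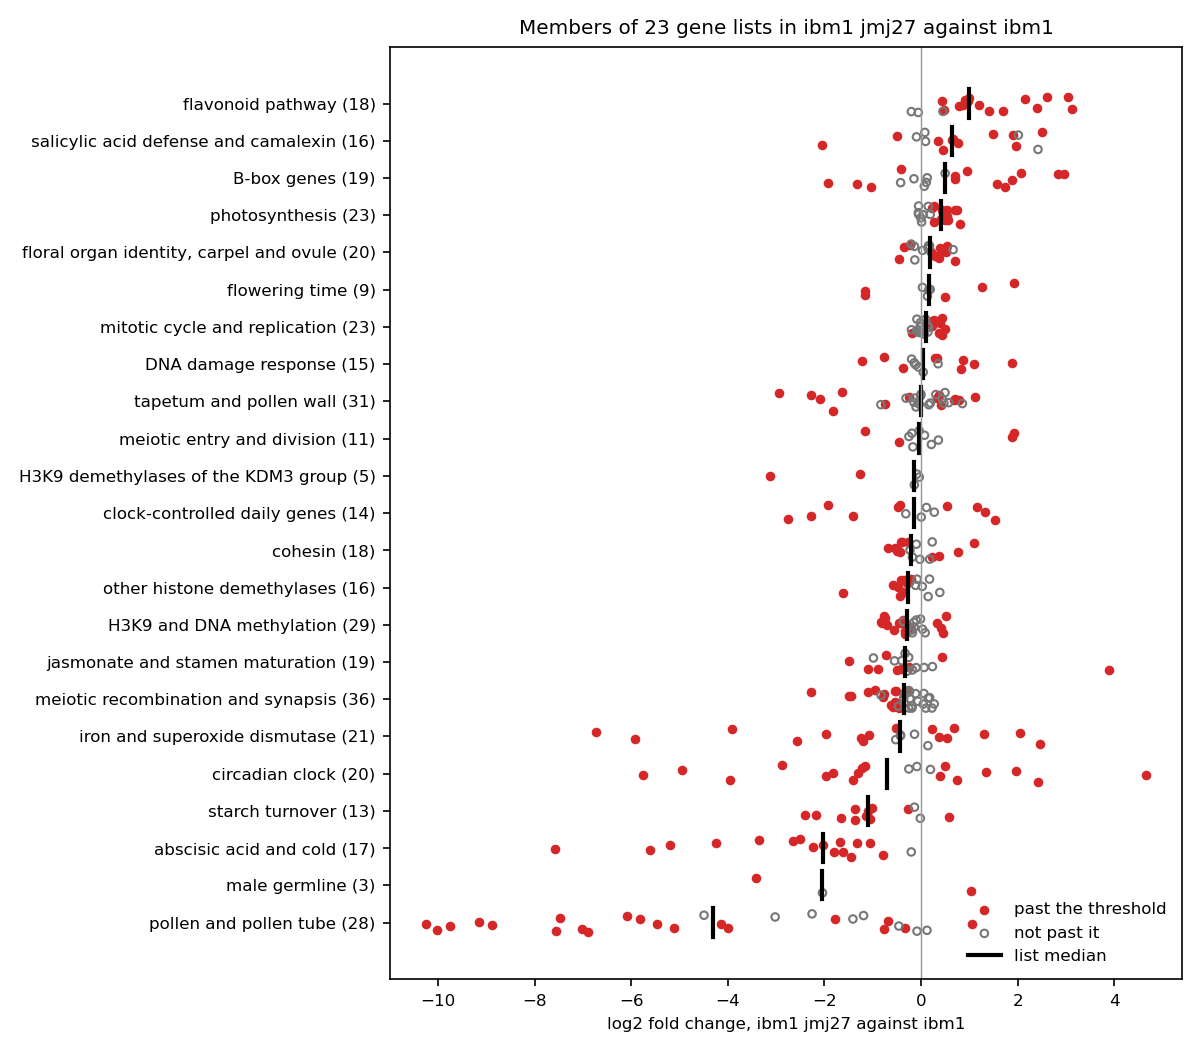
Log2 fold change of ibm1 jmj27 against ibm1 (x axis) for the tested members of 23 gene lists (y axis, number tested in brackets). Filled points passed an adjusted p of 0.05, open points did not, and the black bar is the list median, from -4.32 for pollen genes to 0.99 for the flavonoid pathway.

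Pollen genes had the lowest median of the 23 lists. Of 35 genes known from pollen and the pollen tube, 28 passed the filter on low counts. Among those 28, 19 fell, 1 rose and 8 did not pass the test. Their median log2 fold change was -4.32, or -4.0 with the 4 genes at 0 set at their bound, against 0.00416 over all genes. Genes near 0 in ibm1 jmj27 passed the filter through the other genotypes, so these counts describe the list and lend it no support. VGD1, which demethylesterifies pectin in the tube wall, went from 28.5 and 26.4 CPM to 0.194 and 0.0933. PRF4 and PRF5, actin-binding profilins of pollen, went from 244 and 148 counts over the group to 2 and 1 (ratios of 134, interval 36.6 to 1110, and 162, interval 28.7 to 6450). The pollen sugar transporter STP2 fell from 38.9 and 38.4 CPM to 0.582 and 4.06, so its ibm1 jmj27 libraries differed several-fold from each other and both lay below ibm1. HA9, another proton pump of anthers, fell less far, from 20.4 and 22.1 to 5.47 and 6.91 CPM (-1.79 ± 0.248, adjusted p = 0.000979).

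The pollen genes were not uniform. HA8 was the member that rose, from 9.21 and 9.44 CPM to 19.4 and 19.5 (1.06 ± 0.11, adjusted p = 4.8e-06). AGL104, a pollen MADS-box factor, had 65 counts over the ibm1 libraries and 1 in ibm1 jmj27, whereas its relative AGL65 was at 5.42 and 6.88 CPM against 5.82 and 5.74, with overlapping groups. ANX1, a receptor kinase that keeps the tube intact, changed by -0.34 ± 0.118 (adjusted p = 0.0313), and MYB101, a factor of the pollen tube, did not pass the test at 0.12. The summed level of all 35 listed genes was 592 and 570 CPM in Col, 261 and 259 in ibm1, 75.2 and 87.2 in ibm1 jmj27, and 508 and 629 in pds5.

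The 17 markers of the pollen vegetative cell and tube are all members of the pollen list above. They repeat part of that list and are no separate reading of pollen amount. Their summed levels were 88.7 and 86.3 CPM in ibm1 and 40.6 and 41.1 in ibm1 jmj27. HA8, the 1 marker called higher, gave 19.4 and 19.5 CPM of the ibm1 jmj27 sums, against 9.21 and 9.44 in ibm1. Of 14 tested markers 8 were lower, where 22.8% of all genes fell. In both ibm1 jmj27 libraries 3 of the 17 were at 0. Markers near 0 there passed the filter through the other genotypes, so these counts lend the list no support. In bulk buds, fewer pollen cells and less RNA per cell cannot be told apart. Of the 5 genes of the male germline, DAZ1 and DAZ2 were too low to test. MGH3, a sperm histone H3, had 12 counts in ibm1 and 1 in ibm1 jmj27 (ratio 13.2, interval 1.95 to 562, adjusted p = 0.0168). GCS1, the gamete fusion protein, read 1.497 and 1.08 CPM against 2.25 and 3.13 (1.04 ± 0.312, adjusted p = 0.0149). Both calls were lost when ibm1 jmj27 replicate 2 was left out (MGH3 adjusted p = 0.0669, GCS1 adjusted p = 0.0794). MGH3 was also lost without ibm1 replicate 1 (0.0749) and GCS1 without ibm1 replicate 2 (0.133).

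Tapetum genes moved in both directions. Of 31 genes of the tapetum and pollen wall, 7 rose and 7 fell, with a median of -0.00181, and the share called (45.2%) was close to that of all genes. Genes of the pollen coat and late wall made up most of the falls. GRP17, an oleosin of the pollen coat, fell from 2463 and 2351 CPM to 230.2 and 397 (-2.94 ± 0.245, adjusted p = 8.81e-05). GRP19, also a coat oleosin, fell from 791 and 769 to 192 and 251 (-1.82 ± 0.11, adjusted p = 2.5e-08). The coat lipase genes EXL4 and EXL6 fell too, EXL4 by 2.28 on the log2 scale and EXL6 from 182 and 186 to 33.1 and 53.1 CPM. RPG1, a sugar transporter needed for the exine pattern, changed by -1.63, and QRT3, a polygalacturonase that frees microspores from the tetrad, by -0.75. In each of these genes both ibm1 jmj27 libraries lay below both ibm1 libraries, but nearly all called genes had groups that do not overlap.

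Regulators of the tapetum did not share a direction, and several of them rose. AMS, a bHLH factor of tapetum development, read 143 and 138 CPM in ibm1 and 188 and 269 in ibm1 jmj27 (0.70 ± 0.161, adjusted p = 0.00737). TDF1, a MYB factor upstream of it, went from 2.60 and 2.95 to 4.50 and 5.04 (0.78 ± 0.213, adjusted p = 0.00889). DYT1, which acts before both, read 0.528 and 0.639 against 1.63 and 0.886 (1.13 ± 0.416, adjusted p = 0.0404), and TPD1, the peptide ligand that specifies the tapetum, changed by 0.69. ATA7, a tapetal lipid transfer protein, rose by 0.41. Col read 225 and 243 CPM for AMS and 1.53 and 1.58 for DYT1, so the ibm1 jmj27 values lay on both sides of Col and ibm1 was lower. ATA7 in ibm1 jmj27 (176 and 212) stayed below Col (244.5 and 299.1). TDF1 and TPD1 in ibm1 jmj27 were above Col, which read 3.06 and 4.01 for TDF1 and 3.47 and 4.39 for TPD1. EMS1, the receptor of TPD1, was one of the list's 7 falls (61.0 and 63.5 CPM to 51.1 and 53.8, -0.25 ± 0.0678, adjusted p = 0.00947). SPL, MYB80 and MS1, regulators of early and late steps, did not pass the test, at 0.16, -0.10 and -0.31. The rises numbered 3 without ibm1 replicate 1, 1 without ibm1 replicate 2 and 4 without ibm1 jmj27 replicate 2. Markers of the tapetum, all members of the same list, gave summed levels of 455 and 432 CPM in ibm1 and 511 and 666 in ibm1 jmj27. In Col the same sums were 667.5 and 763.4. Of these 7, 4 were higher and none lower, where 22.7% of all genes rose. They repeat part of the list and are no separate reading of tapetum amount.

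For several exine enzymes the ibm1 jmj27 libraries differed from each other by more than the group means did. ACOS5, an acyl-CoA synthetase of sporopollenin, read 152 and 150 CPM in ibm1 and 170 and 376 in ibm1 jmj27 (0.86 ± 0.479, adjusted p = 0.222). LAP5, a chalcone synthase-like enzyme, read 142 and 146 against 137 and 292, and MS2, a fatty acyl reductase, 228 and 228 against 154 and 291. DRL1 and CYP704B1 had the same layout, with 1 ibm1 jmj27 library near or below the ibm1 values and the other above. So did TKPR2, at 85.41 and 154.4 CPM in ibm1 jmj27, and CYP703A2, at 65.45 and 95.46. Library 2 of ibm1 jmj27 was higher than library 1 in 30 of the 31 list genes, by 1.5-fold or more in 12 of them, and the median log2 ratio of library 2 to library 1 was 0.38 there against -0.03 between the ibm1 libraries. What part this difference between libraries has in the tapetum results was not tested.

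**Figure D2:**
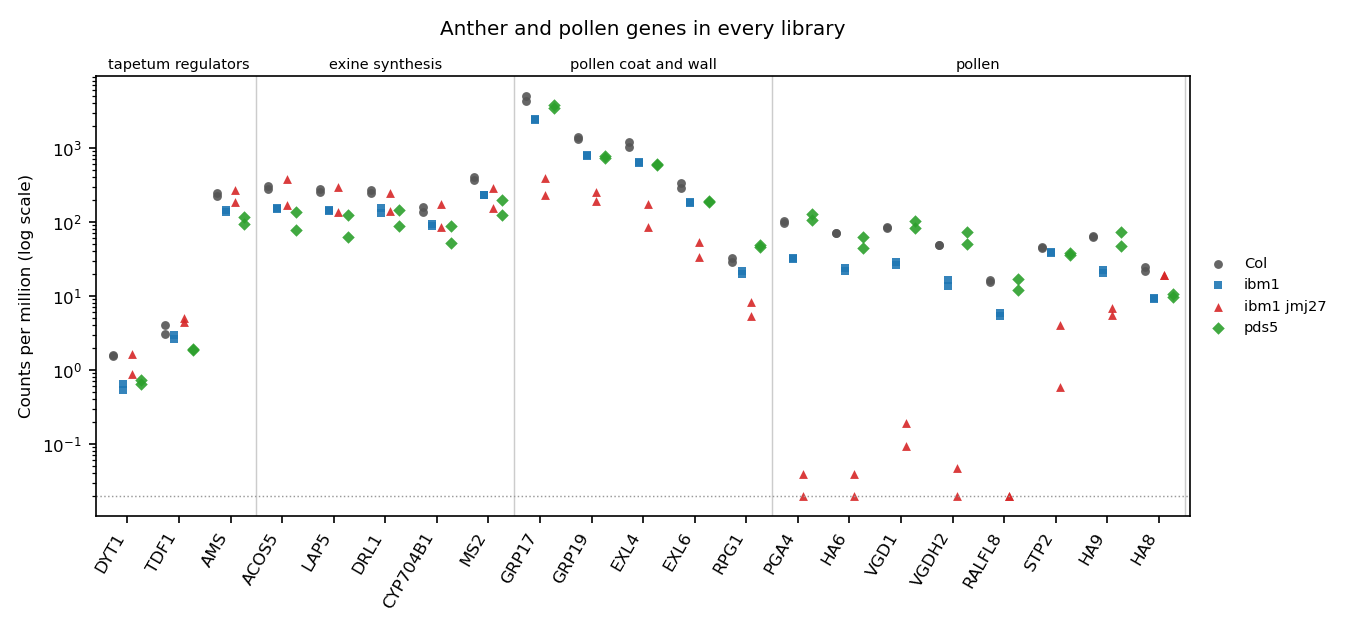
CPM (y axis, log scale) of anther and pollen genes in each of the 8 libraries, 2 points per genotype. Values under 0.02 CPM, including 0, are drawn on the dotted line. PGA4, HA6, VGD1, VGDH2 and RALFL8 drop by orders of magnitude in ibm1 jmj27 (VGD1 from 28.5 and 26.4 to 0.194 and 0.0933). Of the other pollen genes drawn, STP2 and HA9 fall less far and HA8 rises. Coat genes also fall less than VGD1. The ibm1 jmj27 libraries stand apart from each other for the 5 exine enzymes drawn (LAP5 at 137 and 292). DYT1, TDF1 and AMS lie above ibm1.

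Genes of meiotic recombination and synapsis that passed the test all fell, most of them by small amounts. Of 36 such genes, 16 (44.4%) fell and none rose, with a median of -0.35, where 22.8% of all genes fell. A DESeq2 Wald test called 10 of them lower, and upper-quartile scaling called 1 higher. SHOC1, a nuclease-like protein of the crossover pathway that leads to interference, had the largest fall, from 3.74 and 4.08 CPM to 0.815 and 0.793 (-2.27 ± 0.255, adjusted p = 9.89e-06). ZIP4, of the same pathway, went from 1.72 and 2.75 to 0.543 and 1.07 (-1.48 ± 0.361, adjusted p = 0.00442). ASY3, of the chromosome axis, went from 33.3 and 33.2 to 23.7 and 22.3 (-0.53 ± 0.0805, adjusted p = 0.000133). The helicase gene RECQ4B, which limits crossovers, changed by -0.78 and the nuclease gene MUS81 by -0.53. DMC1, the meiotic recombinase, changed by -0.35 (adjusted p = 0.0441), with 18.7 and 20.7 CPM against 17.1 and 13.8. The synaptonemal complex pair ZYP1A and ZYP1B also fell, but reads from these near-identical copies may be shared between them. HEI10, SPO11-1 and ASY1 did not pass the test, at 0.10, -0.35 and -0.25.

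Regulators of meiotic entry and division gave 2 rises and 2 falls among 11 genes, a share of 36.4% that is under the 45.5% of all genes. TDM1, which ends the meiotic programme after the last division, read 0.925 and 1.28 CPM in ibm1 and 4.08 and 4.29 in ibm1 jmj27 (1.93 ± 0.286, adjusted p = 0.000113), and its Col values were 3.93 and 4.05. MMD1, a PHD-finger protein of meiocytes, went from 0.396 and 0.442 to 1.09 and 2.05 (1.88 ± 0.499, adjusted p = 0.00761), a call lost without ibm1 replicate 1 (adjusted p = 0.0642) or ibm1 replicate 2 (0.0531). SYN1, the meiotic cohesin kleisin, fell from 3.83 and 4.52 to 2.29 and 1.40 (-1.16 ± 0.257, adjusted p = 0.00242). The meiocyte markers DMC1, ASY1, SDS, ZYP1A and SYN1 all belong to this list or to the recombination list. They gave 36.3 and 38.5 CPM in ibm1 and 31.3 and 25.4 in ibm1 jmj27, with 3 of 5 lower, where 22.8% of all genes fell. These markers are thus no separate reading of meiocyte amount, whose part in the falls of the recombination genes was not tested.

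Cohesin genes split. PDS5A (AT5G47690), one of the cohesin cofactors, read 107 and 112 CPM in ibm1 and 215 and 249 in ibm1 jmj27 (1.09 ± 0.0826, adjusted p = 2.44e-07). Col had 236 and 249, so ibm1 jmj27 lay near the control level and ibm1 well under it. PDS5B (AT1G77600) moved the other way, from 71.3 and 70.2 to 39.8 and 48.1 (-0.69 ± 0.09, adjusted p = 3.76e-05), as did PDS5D (AT1G80810), by -0.50. PDS5E (AT1G15940) did not pass the test, at -0.02, and PDS5C (AT4G31880) passed it at 0.22 ± 0.0796 (adjusted p = 0.0353) but lost the call in 6 of the alternatives. Of the ring and its loader, SMC1 changed by -0.40, SMC3 by -0.50, SCC3 by -0.41 and SCC2 by -0.54. Over 18 cohesin genes 4 rose, near the 22.7% of all genes that did, and 8 fell, against 22.8% of all genes, with a median of -0.20. The rises numbered 2 without ibm1 replicate 1, ibm1 replicate 2 or ibm1 jmj27 replicate 2.

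Chromatin genes showed more falls than rises. In a list of 29 genes of H3K9 and DNA methylation, 15 fell and 4 rose, with a median of -0.29. ROS1, a DNA glycosylase that removes methylated cytosine, read 160 and 162 CPM in ibm1 and 83.0 and 101 in ibm1 jmj27 (-0.81 ± 0.0883, adjusted p = 8.28e-06). Its relative DME changed by -0.71, and MET1, the maintenance methyltransferase of CG sites, by -0.74. CLSY1, which brings RNA polymerase IV to its targets, changed by -0.56. CMT3, the chromomethylase whose mark depends on H3K9 methylation, changed by -0.29 (adjusted p = 0.00415), while SUVH4, the main H3K9 methyltransferase, did not pass the test at 0.09. EDM2 and IBM2, both needed for full-length IBM1 transcripts, went opposite ways: EDM2 from 90.4 and 93.2 to 71.1 and 74.5 CPM (-0.34), and IBM2 (AT5G11470) from 7.27 and 6.93 to 10.9 and 9.47 (0.53). The 4 rises of the list became 2 without ibm1 replicate 1, 1 without ibm1 replicate 2 and 2 without ibm1 jmj27 replicate 1.

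Of 16 other histone demethylases, 10 fell and none rose, with a median of -0.27 (6 fell without ibm1 replicate 1). JMJ30, an H3K27 demethylase with a daily rhythm, moved most, from 12.6 and 10.1 CPM to 4.54 and 2.71 (-1.62 ± 0.199, adjusted p = 6.12e-05). The H3K4 demethylases JMJ14 and JMJ18 changed by -0.41 and -0.59. ELF6 and its relative REF6, which act on H3K27, differed: REF6 passed the test at -0.26 and ELF6 did not, at 0.02.

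Clock genes changed in both directions in ibm1 jmj27. The plant clock runs through morning MYB factors (LHY, CCA1, RVE8), pseudo-response regulators that follow one another through the day, and an evening group that includes GI, ELF3, ELF4 and LUX. Of 20 clock genes 7 rose and 10 fell, so 85% were called. CCA1 rose from 50.4 and 48.4 CPM to 185 and 202 (1.97 ± 0.081, adjusted p = 5.47e-10) and RVE8 from 18.8 and 18.5 to 105 and 93.7 (2.42 ± 0.0796, adjusted p = 5.62e-11). The pseudo-response regulators went from a small rise to deep falls. PRR9 changed by 0.39, PRR7 by -1.17, PRR5 by -4.95, PRR3 by -2.88 and TOC1 by -1.41. PRR5 read 55.0 and 58.3 CPM in ibm1 and 1.79 and 1.87 in ibm1 jmj27.

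In the evening group every gene named above fell. FKF1, a blue-light receptor of photoperiod timing, went from 27.9 and 25.5 CPM to 0.388 and 0.607 (-5.76 ± 0.163, adjusted p = 1.19e-11) and ELF4 from 8.19 and 10.4 to 0.543 and 0.653 (-3.95 ± 0.273, adjusted p = 1.73e-07). GI changed by -1.82, ELF3 by -1.30 and LUX by -1.22. Among 14 daily output genes 4 rose, not far from the 22.7% of all genes, and 6 fell, against 22.8% of all genes. The glycine-rich RNA-binding protein gene GRP7 fell from 1288 and 1196 to 193 and 175 CPM (-2.75 ± 0.0938, adjusted p = 7.8e-11), and COL2, a CONSTANS-like gene, rose from 19.2 and 19.9 to 53.0 and 59.4 (1.52 ± 0.102, adjusted p = 7.21e-08). Other members varied: RVE6 and LNK1, of the morning group, did not pass the test at -0.25 and 0.19, CHE, a TCP factor that represses CCA1, rose by 0.75, the daily genes RVE7 and CDF3 changed by -0.43 and -0.48, and CDF1 did not pass. ZTL, whose transcript is known as nearly constant through the day, did not pass the test at -0.09. The hour of harvest is not given in the labels, and a difference in hour and a difference in genotype cannot be told apart here.

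**Figure D3:**
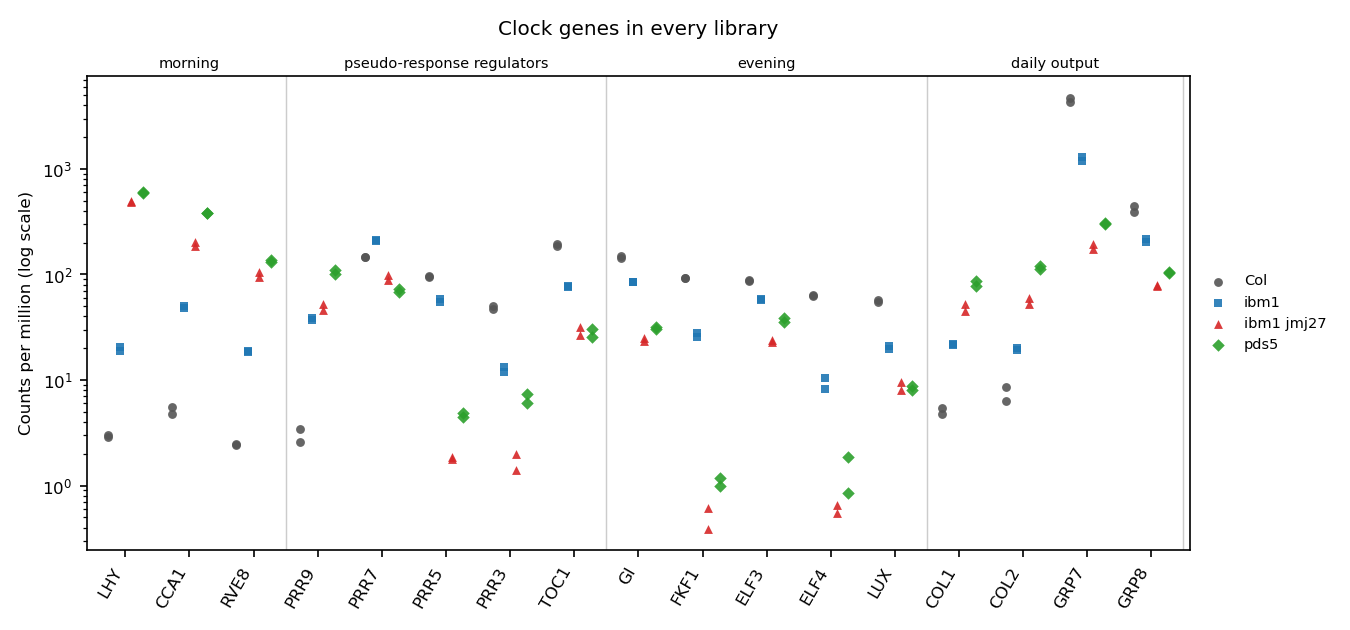
CPM (y axis, log scale) of clock and daily output genes in each of the 8 libraries, 2 points per genotype. In ibm1 jmj27 the morning genes LHY, CCA1 and RVE8 lie above ibm1 and the evening genes FKF1, ELF4 and GI below it; Col has the lowest LHY (3.01 and 2.86 CPM) and pds5 the highest (607 and 597).

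Light-related genes were mostly higher in ibm1 jmj27. In the flavonoid list, which holds pigment enzymes, their MYB regulators and early light genes, 15 of 18 rose and none fell, with a median of 0.99. ELIP2 read 19.3 and 18.7 CPM in ibm1 and 155 and 176 in ibm1 jmj27, and ELIP1 went from 153 and 145 to 779 and 792 (2.40 ± 0.0823, adjusted p = 8.45e-11). HY5, the factor that promotes light responses, rose from 8.63 and 9.34 to 32.8 and 25.4 (1.70 ± 0.126, adjusted p = 1.95e-07). The pathway enzymes F3H and TT7 rose by 1.19 and 1.40, and TT4, chalcone synthase at its entry, by 0.42. The regulators MYB111, PAP1 and TT8 did not pass the test.

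Most photosynthesis genes rose a little. Of 23 genes, 15 rose, none fell and 8 did not pass the test, with a median of 0.41, a largest rise of 0.80 and none at 1 or more. Among those that did not pass, LHCB4.1 was at -0.06 and LHCB1.2 at -0.05. RCA, Rubisco activase, went from 1598 and 1588 CPM to 2314 and 3002 (0.74 ± 0.107, adjusted p = 9.65e-05), and LHCB6, an antenna protein, from 765 and 743 to 1228 and 1226 (0.70 ± 0.0771, adjusted p = 8.27e-06). RBCS and LHCB1 genes are near-copies of each other, so their counts are uncertain one by one. The 14 markers of green tissue are the LHCB and RBCS genes of this same list. They summed to 27520 and 26960 CPM in ibm1 and 32620 and 34720 in ibm1 jmj27. Of the 14, 11 were higher and none lower, where 22.7% of all genes rose. These markers are thus no separate reading of green tissue, whose part in the light-related changes was not tested.

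B-box genes, zinc-finger factors of light and clock signalling, gave 9 rises and 4 falls among 19, with a median of 0.50. Of all genes 22.7% rose and 22.8% fell, so the B-box falls are near the share of all genes. BBX25 rose from 25.3 and 25.9 CPM to 89.8 and 81.8 (1.75 ± 0.0753, adjusted p = 9.21e-10) and BBX32 from 2.77 and 3.98 to 14.2 and 14.0 (2.07 ± 0.149, adjusted p = 1.45e-07). BBX22 fell from 36.1 and 37.99 to 18.1 and 17.8 (-1.04 ± 0.087, adjusted p = 5.95e-07).

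Genes of starch turnover fell. Of 13, 10 fell and 1 rose, with a median of -1.10. ISA3, a debranching enzyme of starch breakdown, read 257 and 258 CPM in ibm1 and 51.4 and 46.4 in ibm1 jmj27 (-2.40 ± 0.0779, adjusted p = 4.83e-11). SEX1, the glucan water dikinase that starts breakdown, went from 514 and 521 to 93.9 and 135 (-2.18 ± 0.135, adjusted p = 2.32e-07), and DPE1, a disproportionating enzyme, from 110 and 116 to 36.5 and 35.9 (-1.65 ± 0.0779, adjusted p = 2.22e-09). GBSS1, the granule-bound synthase that makes amylose, was the member that rose, by 0.59. The starch and clock lists moved in the same libraries, and the part of the hour of harvest in the starch changes was not tested.

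The list of abscisic acid and cold response had the largest share of called genes among the 23 lists, 94.1%. Abscisic acid is the hormone of drought and seed dormancy, and CBF factors switch on cold-protective COR genes. Of 17 genes, 16 fell and none rose, 15 of the falls were of 1 or more on the log2 scale, and the median was -2.03. RD29A, a drought and cold target, read 1457 and 1479 CPM in ibm1 and 28.2 and 31.7 in ibm1 jmj27 (-5.62 ± 0.14, adjusted p = 6.85e-12). CBF3 went from 29.3 and 27.2 to 0.932 and 0.56 (-5.20 ± 0.214, adjusted p = 5.47e-10), and CBF1 had 44 counts over the ibm1 libraries and none in ibm1 jmj27, at least 16.1-fold lower. LEA7, a desiccation protein, went from 88.4 and 86.1 to 7.72 and 9.52 CPM (-3.35 ± 0.105, adjusted p = 3.27e-11). NCED3, the enzyme that limits abscisic acid synthesis, went from 6.39 and 7.42 to 1.203 and 1.213 (-2.51 ± 0.216, adjusted p = 8.08e-07). HAI2, a phosphatase that dampens the hormone's signal, went from 46.7 and 46.6 to 10.99 and 11.85 (-2.03 ± 0.0976, adjusted p = 2.58e-09). ABI1, a phosphatase of the same kind, was the member that did not pass, at -0.20 (adjusted p = 0.0527).

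Levels in Col place these falls. RD29A was at 433 and 459 CPM in Col, LEA7 at 7.10 and 6.05, NCED3 at 0.919 and 0.725 and HAI2 at 7.97 and 9.12. For LEA7, NCED3 and HAI2 the ibm1 jmj27 values were therefore within a few-fold of Col, and the ibm1 values were the high ones. RD29A was below Col in ibm1 jmj27, as was CBF3, which had 8.78 and 8.36 CPM in Col. The clock genes above moved in the same libraries, and their part in these falls was not tested.

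Iron genes moved in both directions. Under iron shortage the factors BHLH38, BHLH39, BHLH100 and BHLH101 are known to be induced, whereas ferritins store iron. Of 21 genes in the iron and superoxide dismutase list, 7 rose and 9 fell. BHLH38 read 9.78 and 9.29 CPM in ibm1 and 0.155 and 0 in ibm1 jmj27 (-6.73 ± 0.406, adjusted p = 2.39e-08), and BHLH39 had 181 counts against 3 (ratio 66.1, interval 22.3 to 324). BHLH100 went from 14.0 and 13.6 CPM to 1.05 and 0.747 (-3.92 ± 0.287, adjusted p = 2.28e-07). The ferric reductase gene FRO3 fell by 1.97 on the log2 scale, the E3 ligase gene BTS by 1.21 and the iron transporter gene OPT3 by 1.25. FIT, a factor that works with them in the shortage response, had the list's largest rise, from 0.484 and 0.295 CPM to 1.28 and 3.17 (2.46 ± 0.522, adjusted p = 0.00173), and the transporter gene IRT1 did not pass the test at -0.42. The ferritins FER4, FER2 and FER3 rose by 0.38, 0.54 and 0.23, and FER1 did not pass at 0.14. FSD1, an iron superoxide dismutase, rose from 50.8 and 42.4 CPM to 173 and 215 (2.06 ± 0.192, adjusted p = 0.000127). BHLH38 and BHLH39 were at 0.0511 CPM in 1 Col library and at 0 in the other, so the ibm1 jmj27 levels were near those of Col.

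**Figure D4:**
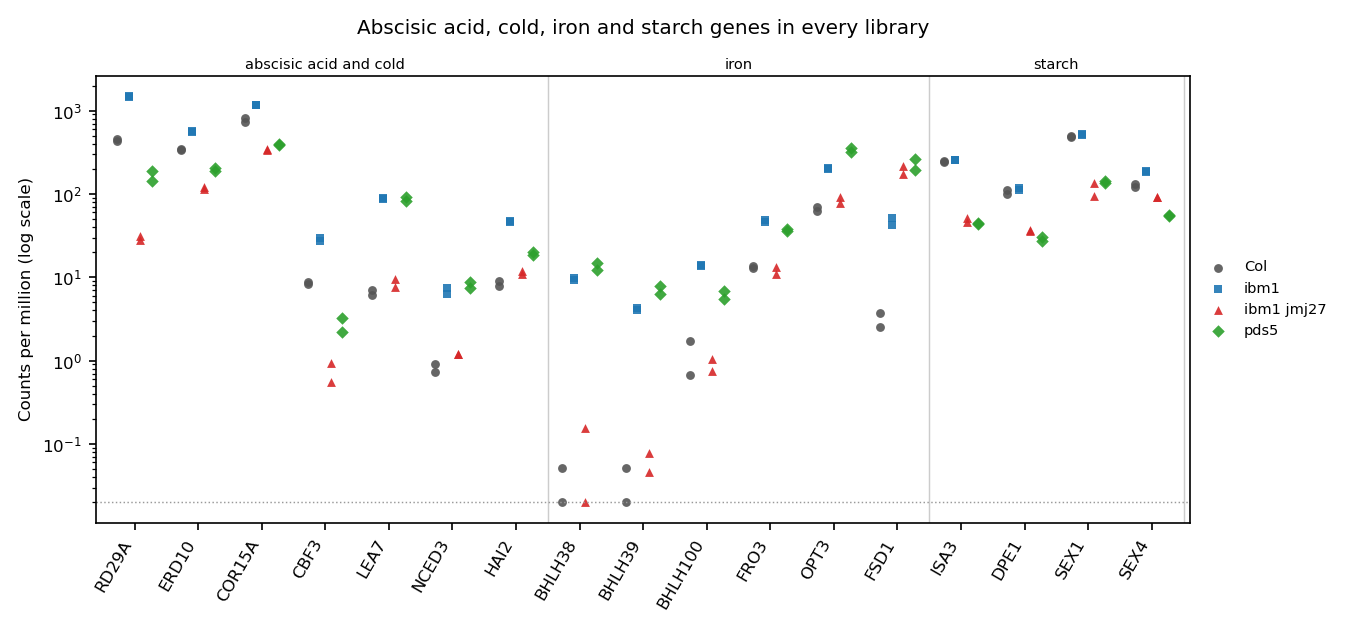
CPM (y axis, log scale) of abscisic acid, cold, iron and starch genes in each of the 8 libraries, 2 points per genotype; values under 0.02 CPM are drawn on the dotted line. The ibm1 libraries are the highest of the 4 genotypes for RD29A (1457 and 1479 CPM), and ibm1 jmj27 the lowest (28.2 and 31.7).

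Defense genes of the salicylic acid pathway and camalexin, an antimicrobial indole compound, gave 9 rises and 2 falls among 16 tested, with a median of 0.65. PR2, a glucanase, rose from 13.04 and 11.85 CPM to 49.4 and 48.1 (1.97 ± 0.0887, adjusted p = 1.46e-09) and PR5, a thaumatin-like protein, from 6.69 and 7.42 to 27.9 and 24.8 (1.90 ± 0.15, adjusted p = 4.29e-07). The lipase-like regulators EDS1 and PAD4 rose by 0.46 and 0.66, but ICS1, the enzyme that makes salicylic acid, did not pass the test at 0.08. CYP71A13, of camalexin synthesis, fell from 6.21 and 4.18 to 1.24 and 1.26 (-2.06 ± 0.233, adjusted p = 1.09e-05). Other camalexin genes of the list went the other way. CYP79B2 rose from 15.3 and 14.1 CPM to 25.4 and 24.5 (0.76 ± 0.139, adjusted p = 0.000631). PAD3, with few counts, rose from 0.044 and 0.197 to 0.544 and 0.840 (2.50 ± 0.906, adjusted p = 0.038), and CYP71A12 did not pass the test at 2.01.

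Among 19 tested genes of jasmonate and stamen maturation 2 rose and 7 fell (47.4% called, near the share of all genes), with a median of -0.33. ARF6, an auxin response factor that promotes stamen growth, went from 377 and 385 CPM to 222 and 239 (-0.72 ± 0.0751, adjusted p = 4.94e-06). The storage proteins VSP1 and VSP2, marker genes of jasmonate, fell by 0.90 and 1.49 on the log2 scale. VSP1 lost its call without ibm1 jmj27 replicate 1 (adjusted p = 0.104) or replicate 2 (0.115), VSP2 without ibm1 jmj27 replicate 2 (0.0539), and the list's falls numbered 3 without ibm1 jmj27 replicate 1 and 12 without the pds5 libraries. The stamen factor MYB57 had 2 counts in ibm1 and 36 in ibm1 jmj27 (ratio 16.4, interval 4.23 to 141), and MYB21 had 1 in each.

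Genes of growth and organ identity moved little. Of 23 mitotic and replication genes, 8 rose and 1 fell (39.1% called) with a median of 0.10. The rises included CYCD3;1 (0.50) and CYCB1;2 (0.43), and leaving out ibm1 replicate 1 gave 3 rises and leaving out ibm1 replicate 2 gave 4. The fall, of MCM4, was not called under upper-quartile scaling, by the DESeq2 Wald test, in the 4 libraries alone or without ibm1 replicate 1, ibm1 replicate 2 or ibm1 jmj27 replicate 1, and without ibm1 jmj27 replicate 2 there were 2 falls. Of 20 floral identity, carpel and ovule genes, 9 rose and 3 fell with a median of 0.19 and no change of 1 or more. SEP1 and PI, a petal and stamen factor, rose by 0.52 and 0.53 and SHP1 fell by 0.45, and the rises numbered 4 without ibm1 replicate 2. The falls numbered 1 without either ibm1 replicate. In the DNA damage list 6 of 15 rose, against 22.7% of all genes, and 3 fell, near the 22.8% of all genes. ATR, the kinase of replication stress, went from 10.6 and 10.96 CPM to 3.84 and 5.46 (-1.22 ± 0.157, adjusted p = 3.21e-05), and BARD1 changed by -0.77. ANAC044, a factor that halts the cell cycle, rose by 0.83 (4.80 and 5.21 to 8.62 and 9.24 CPM). The rises in that list numbered 1 without ibm1 replicate 2 and 3 without ibm1 jmj27 replicate 1, and the falls numbered 5 without ibm1 jmj27 replicate 2.

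Flowering-time genes included 2 relatives of FLC that rose. MAF5 went from 3.92 and 3.64 CPM to 15.2 and 13.3 (1.92 ± 0.173, adjusted p = 1.34e-06) and MAF4 from 3.88 and 4.13 to 8.77 and 10.4 (1.25 ± 0.201, adjusted p = 0.000213). FLC, the floral repressor, fell from 16.9 and 18.2 to 7.03 and 8.77 (-1.16 ± 0.139, adjusted p = 1.87e-05), and FT, the mobile flowering signal, from 3.48 and 3.69 to 1.79 and 1.40 (-1.16 ± 0.249, adjusted p = 0.00192). MAF1, MAF2 and MAF3 did not pass the test. Of 9 tested genes 3 rose and 2 fell, not far from the 22.7% and 22.8% of all genes, and 6 rose without ibm1 jmj27 replicate 2.

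Families were defined by the letters that open the symbol, each with at least 20 tested genes, so their members need not be related. Some showed one-sided counts, picked out here after their values were seen. In the GSTU family of glutathione transferases 14 of 20 rose and 1 fell, with a median of 0.75, where 22.7% of all genes rose and 22.8% fell. Of 22 XTH genes, which remodel cell wall xyloglucan, 11 rose and 1 fell (median 0.58). Ribosomal protein genes named RPL rose in 11 and fell in 4 of 22 cases, and EIF genes of translation initiation rose in 10 and fell in none of 21 (medians 0.22 and 0.17); the 4 RPL falls, 18.2%, are near the share of all genes. One-sided the other way were the MAP genes, with 1 higher and 10 lower of 22 (median -0.24), the TRM genes with 3 and 9 of 33, and the UBP genes with 2 and 8 of 27. The TRM and UBP falls, 27.3% and 29.6%, are near the 22.8% of all genes. Their rises, 9.09% and 7.41%, are below the 22.7% of all genes.

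Calls were spread over the genome and over levels. By chromosome, 44.4% to 46.2% of tested genes were called. By mean level the share grew from 32.3% of genes under a mean log2 CPM of 0 to 58.8% of those above 8. Near JMJ27 itself, of the 10 tested genes on either side, 3 rose and 5 fell with a median of -0.23. The largest changes there were AT4G00955, which rose by 1.64 on the log2 scale, and PYL7, an abscisic acid receptor, which fell by 1.22 (20.5 to 8.75 CPM on average).

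A comparison with no library in common was pds5 against Col. In it 10566 genes were called (49%). Of the genes called in ibm1 jmj27 against ibm1, 5656 were also called there, which is 57.7% of the first set and 53.5% of the second, and 4371 of the shared calls (77.3%) had the same sign against 62.4% over all tested genes. Across genes, which are not independent replicates, Pearson's r of the log2 fold changes was 0.17 and Spearman's rho 0.29. The test of the difference itself called 7668 genes (35.6%), among them 4807 of the 9798 genes called in ibm1 jmj27 against ibm1 (49.1%).

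Lists divided by how they stood in both comparisons. The flavonoid list had medians of 0.99 and 1.23, with 9 of its 18 genes passing the test of the difference, and starch turnover had medians of -1.10 and -1.03, with 5 of 13 passing it. ISA3 changed by -2.40 in ibm1 jmj27 against ibm1 and by -2.47 in pds5 against Col, a difference that did not pass the test (adjusted p = 0.63), and ELIP2 changed by 3.12 and 3.23 (adjusted p = 0.529). Of the clock list 15 of 20 passed it, though most shared their sign: LHY changed by 4.66 and 7.68 and PRR5 by -4.95 and -4.37. The gap between the medians was widest for the lists of pollen and of abscisic acid and cold. For pollen the medians were -4.32 and 0.00218, and 21 of 28 genes passed the test of the difference, the same share as in the clock list. The pollen gene PGA4, for example, read 106 and 128 CPM in pds5. Iron genes passed the test of the difference in 19 of 21 cases and daily genes in 12 of 14. All 17 genes of abscisic acid and cold passed it, with medians of -2.03 and 1.18. Tapetum genes also separated, with medians of -0.00181 and -1.08 and 19 of 31 passing. AMS was higher in ibm1 jmj27 than in ibm1 by 0.70 and lower in pds5 than in Col by 1.14. QQS rose by 3.19 in the first comparison and did not pass in the second (-0.14), and the difference had an adjusted p of 4.43e-06.

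**Figure D5:**
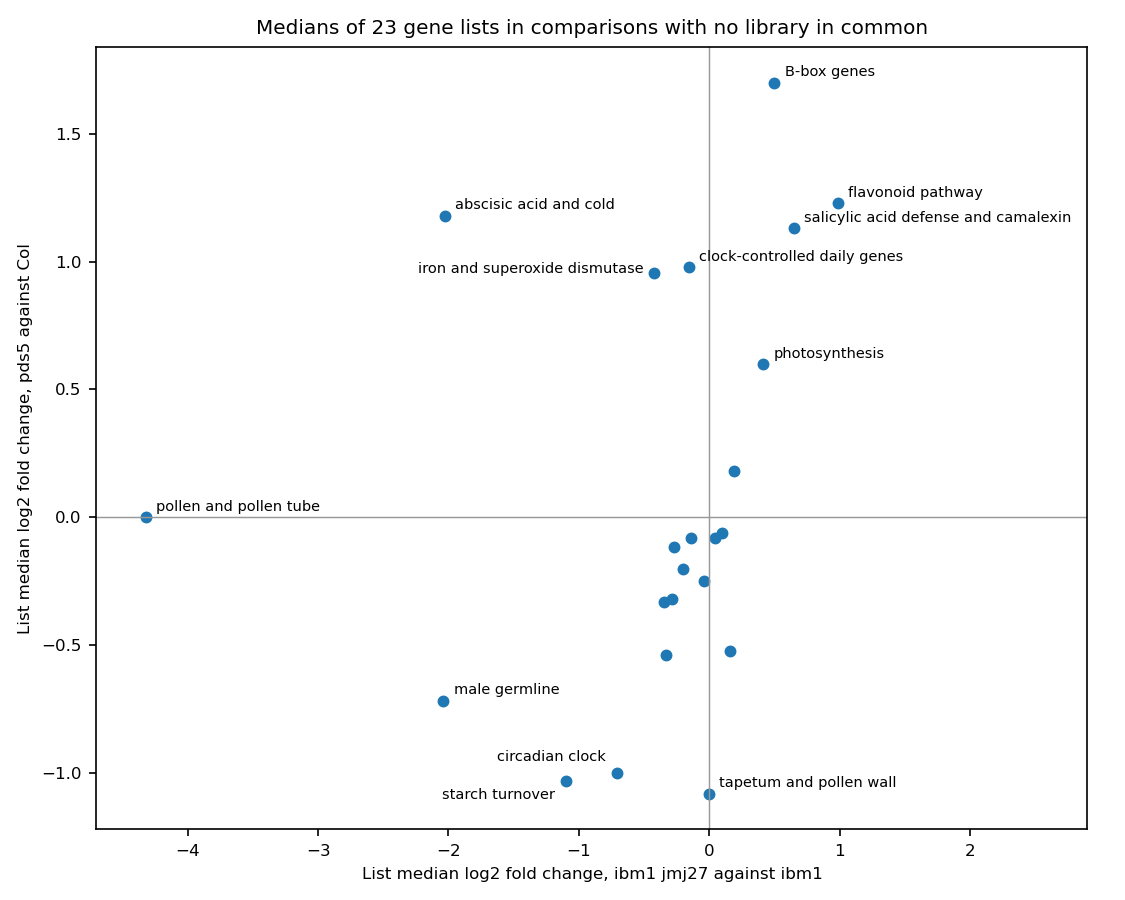
Median log2 fold change of each of 23 gene lists in ibm1 jmj27 against ibm1 (x axis) and in pds5 against Col (y axis), which share no library. Starch (-1.10 and -1.03) and flavonoid genes (0.99 and 1.23) stand on the same side in both, pollen genes are low on the x axis at a y value of 0.00218, and abscisic acid and cold genes have opposite signs.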

How the data were processed

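Polyadenylated RNA of closed buds was sequenced as 150 bp read pairs, per the labels' protocols. What the authors deposited are unnormalized counts of reads per gene, in 3 tables whose Col columns were identical. HISAT2, Subread, DESeq2 and the TAIR10 build come from the submitters' processing notes. Versions, strand setting and treatment of multi-mapped reads are unknown here (not given in the sources used), so counts of near-copies and of overlapping or antisense genes are uncertain. The chromatin libraries were not analysed here. There were 0 unmapped per-sample columns and no rows without a gene.

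All 8 RNA libraries were fitted together in R 4.3.3 with edgeR 4.0.16 (TMM scaling, filterByExpr, robust quasi-likelihood test, 4 residual degrees of freedom), with contrasts for ibm1 jmj27 against ibm1, pds5 against Col and their difference, and Benjamini-Hochberg adjustment over 21548 genes. The SE was computed by dividing the size of the log2 fold change by the root of F, and can fall below counting error where counts are few. Ratios resting on 1 to 3 counts carry exact 95% intervals. The fit was tested on simulated data.

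The text names IBM1, JMJ27, the PDS5 and main clock genes, the 10 largest called rises and falls with a symbol, a mean log2 CPM of at least 1 and groups that do not overlap, up to 4 members per list by smallest p, JMJ27's neighbours changed by 1 or more and genes at 0 in one group with a mean of 50 counts in the other. Further list members were named after their values were seen, to show a role. The 23 lists (438 genes) and the rule were chosen with earlier results of these data known. Names come from a RefSeq table (TAIR10.1). For 102 list genes it holds another symbol or none, and they were matched by locus. Alternatives were DESeq2 1.42.0 (Wald test, and its size factors in edgeR), upper-quartile scaling, no filter, a replicate block, no robust estimation, fewer genotypes, each library left out, an adjusted p under 0.01 and a minimum log2 fold change of 1.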

Additional observations from a re-analysis of the deposited data

How the results depend on the processing

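A DESeq2 Wald test called 8026 genes in ibm1 jmj27 against ibm1, and the 4 libraries of that comparison alone gave 8011. A minimum absolute log2 fold change of 1 left 2601 genes (1164 higher, 1437 lower), with 2725 for pds5 against Col and 3026 for the difference. An adjusted p under 0.01 left 4884 for the difference. With 1 library left out at a time, where the lone library is assumed to vary like the other groups, the ranges were 6451 to 10955 for the main comparison, 2911 to 5375 for its higher genes, 3540 to 5580 for its lower genes, 7575 to 8197 for pds5 against Col and 5557 to 9608 for the difference. Scalings moved the median log2 fold change of all genes by under 0.1 (0.0405 under upper-quartile scaling, which put 55% of the calls higher). A replicate block called 10120 genes, 8010 for the difference and 10846 for pds5 against Col. The labels do not say that replicate numbers pair samples, and deviations of same-numbered libraries correlated at -0.00671 to 0.101. Of 117 named or leading list genes, 108 kept direction and side of the threshold under every alternative that gave them an adjusted p, and none reversed. Of 46 list counts, 28 stayed within 1.5 times. The causes were not tested.

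With 2 libraries per genotype, 4 residual degrees of freedom and unknown plants behind each library, small changes rest on little replication. Genes with few counts in one arm, pollen genes above all, have wide ratio intervals.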
